A study of Mus musculus with 64 samples.

Results

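Transposon insertions were examined in 34 mouse genes of the epidermis, taken as rows of the deposited insertion table whose gene column names one of them. The genes fall into 6 keratins, 9 genes of desmosomes and the cornified envelope, 8 of hemidesmosomes and the basement membrane, 2 classical cadherins, 6 transcription factors and 3 receptors. Of 299625 unique insertions kept in the series, 706 carried the label of a member, and 29 of the 34 members had at least 1. Krt5, Krt15, Krt1, Krt17 and Ovol1 had none.

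Judging by their names, each with its own code, the 64 samples of genomic DNA were taken as 1 per mouse. They were diffuse large B cell lymphomas (DLBCL) and tails that served as control tissue, from mice in which either PiggyBac (PB) or Sleeping Beauty (SB) mobilised ITP transposons. There were 12 PB tails, 30 PB tumours, 11 SB tails and 11 SB tumours. In both systems the transposase was knocked in at Rosa26 and expressed constitutively, so that it was not limited to B cells in any sample. The PB groups are labelled IMPB, and the paper does not state the Blm genotype of these mice. The SB groups, labelled IMSB, came from crosses of Rosa26 SB/+ with ITP1-C or ITP2-M mice in which both parents were Blm m3/m3. All mice were of mixed C57BL/6 × 129Sv × FVB background, and their ages were not given in the sources used here. System and genetic cross cannot be told apart. The tumours were taken from lymph nodes, spleen, mesenteric masses and other sites. PB tails held between 2035 and 7362 insertions, PB tumours between 757 and 10800, SB tails between 2537 and 7148, and SB tumours between 760 and 8786. Sample names have a joined or a separated form, which might mark a batch. In PB results were also computed within each form, while all SB tumours had joined names. Each insertion was counted once per sample, whatever its reads, since the libraries carried no molecular identifiers and amplified reads do not count molecules.

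Keratins form the filaments of epithelial cells. Desmosomes tie these filaments together between neighbouring cells, and hemidesmosomes anchor the basal layer of the epidermis to the basement membrane. Grainyhead-like factors, Ovol1 and Klf4 act in differentiation and barrier formation, while Egfr and Fgfr2 are growth factor receptors of epithelia. Insertions were read from DNA and carry no measure of the genes' expression, so the markers cannot check the tissue of a sample as transcripts would. The tail is a mixed tissue that holds skin, bone, cartilage, tendon and muscle. A larger share of insertions in a gene can come from more cells with insertions there or from more insertions per cell, and these cannot be told apart in bulk DNA.

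PB inserts at TTAA and SB at TA. The following sites illustrate where PB landed in the member genes whose results are given below. For each called member, apart from Dsg3, Dsc3 and Col17a1, the site is the one hit in most PB samples, or the one with the most reads where no site was shared. The sequences are of the GRCm38 plus strand, 5′ to 3′, and the capitals mark the target motif.
Grhl2, chr15:37237322-37237345: ttcatttccaTTAAgctatattaa
Dsp, chr13:38157103-38157126: gacgagacccTTAAgagaagagta
Egfr, chr11:16776487-16776510: gactaagaatTTAAacagcttaga
Perp, chr10:18846515-18846538: ttgtaggtttTTAAaatagacttt
Pkp1, chr1:135899831-135899854: aatgatggttTTAAtaaactgtaa
Fgfr2, chr7:130213296-130213319: ttcattcttcTTAAatccacacct
Dst, chr1:34158526-34158549: aaatgaagcaTTAAatgagccatt
The Grhl2 site was hit in 2 PB tails and lies in an intron, 4.51 kb from the start of the gene. The Dsp and Egfr sites were each hit in 1 PB tail and 1 PB tumour, also in introns. The sites of Perp, Pkp1 and Fgfr2 lie in introns and were hit in 1 PB tail each. The Dst site was hit in 1 PB tumour with 953 reads, in an exon that the annotation gives as untranslated or non-coding.

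The gene label of Fgfr2 did not mark the gene. Of 369 insertions with this label, 16 lay inside the Fgfr2 gene of the RefSeq annotation (chr7:130162451-130266808, minus strand), and 353 lay up to 2.85 Mb beyond its start. Of these, 264 lay inside other annotated genes, such as Zranb1 (28 insertions) and Tacc2 (26 insertions), and 89 in none. The label made up between 38.3% of the members' labelled insertions in PB tails and 60.8% in SB tails. Labels outside the gene were otherwise few, with 9 for Itga6, 4 for Lamb3 and 2 for Egfr. Of the 148123 insertions whose label is the symbol of a RefSeq gene, 97.2% lay inside that gene. Values are therefore given for the label, which chose the members, and for the RefSeq gene from start to end, here called the gene body, in which the members held 341 insertions.

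PB tails carried a larger share of their insertions in the epidermal genes than PB tumours, and the difference was wider in the gene bodies than by label. In gene bodies the share was 0.313% ± 0.0721 (SD, n = 12) in PB tails, with a lowest value of 0.229%, a median of 0.310% and a highest of 0.464%. PB tumours had 0.0766% ± 0.0563 (SD, n = 30), from 0% over a median of 0.0620% to 0.305%. All 12 tails stood above 29 of the 30 tumours, and the ratio of the means was 4.08. The member bodies hold 0.0741% of the TTAA sites of the chromosomes kept, close to the mean of the tumours and below every tail.

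One tumour reached the range of the tails. PB tumour replicate 4, from a lymph node, had 11 of its 3602 insertions in member bodies, which is 0.305% (exact 95% interval 0.153 to 0.546%, counting error only). Of these insertions 6 lay in Dst, including the one with the most reads in that sample, and 1 each in Egfr, Fgfr2, Grhl1, Grhl2 and Lgr5. The next tumour had 0.132%. Without replicate 4 the PB tumours had 0.0687% ± 0.0367 (SD, n = 29).

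The SB groups lay closer together. In gene bodies SB tails had 0.0901% ± 0.0260 (SD, n = 11), from 0.0459% to 0.137%, with a median of 0.0916%. SB tumours had 0.0690% ± 0.0552 (SD, n = 11), from 0% to 0.156%, with a median of 0.0660%. The ranges overlapped over most of their width, and the member bodies hold 0.0725% of TA sites. By label, the shares were 0.478% ± 0.132 (SD, n = 12) in PB tails, 0.185% ± 0.107 (SD, n = 30) in PB tumours, 0.229% ± 0.0511 (SD, n = 11) in SB tails and 0.163% ± 0.0460 (SD, n = 11) in SB tumours. By label 4 PB tumours reached the range of the PB tails. In PB the form of the sample names moved the gene body shares little. By label PB tumours had 0.197% within joined and 0.153% within separated names, PB tails 0.449% and 0.499%, and SB tails 0.245% and 0.201%. All 11 SB tumours had joined names, so the forms could not be compared there. Within joined names the gene body share was 0.308% in 5 PB tails and 0.0784% in 22 PB tumours, and within separated names 0.316% in 7 tails and 0.0714% in 8 tumours. These shares carry no test, since the members were chosen with earlier results of these data known. The tests of single members below concern genes chosen in this way, so the number of members called is not a test of the set.

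**Figure D1:**
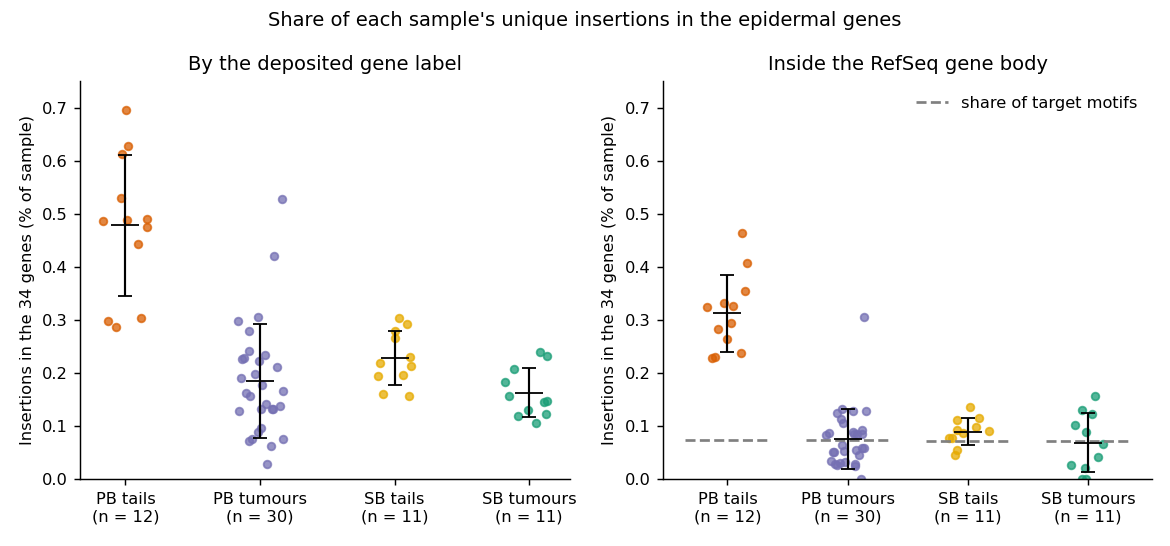
Share of each sample's unique insertions that fell in the 34 epidermal genes, in percent, by the deposited gene label (left) and inside the RefSeq gene body (right). Each point is 1 sample, bars give mean and SD, and dashed lines give the members' share of TTAA (PB) or TA (SB) sites. In gene bodies the 12 PB tails lie between 0.229% and 0.464%, and 1 of 30 PB tumours is among them.

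Insertions per gene were compared between tails and tumours with edgeR, over all genes with at least 10 labelled insertions in a system. Of 3306 genes tested in PB, 76 (2.30%) were higher and 71 (2.15%) lower in tails at an adjusted p under 0.05. Of the 34 members 9 had enough insertions, and 6 of these were higher in tails and none lower. The others were not tested, and 25 members are thus without a result here. The minimum counted tails and tumours together. Dsp (10 insertions in tails, 2 in tumours), Dsc3 (7 and 3) and Grhl2 (21 and 7) reached it only with their tail insertions. By gene body so did Fgfr2 (10 and 3). Lama3 (8 and 14), Itga6 (7 and 12) and Lgr5 (7 and 12) reached it only with their tumour insertions. The count of calls and the median of the members depend in part on this minimum. The median log2 fold change was 1.61 over the 9 members tested and -0.29 over all genes. TMM scaling moved the latter to -0.56 and the split of calls to 45 higher and 126 lower. It kept Grhl2, Dsp and Egfr, and the adjusted p of Dst, Dsc3 and Fgfr2 rose above 0.05. With genes taken by body, 6 of 9 members tested were called, the same 6 genes, beside 2.31% of all genes higher and 2.06% lower in tails.

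Genes of desmosomes and the cornified envelope had the highest ratio between PB tails and PB tumours among the roles with at least 10 insertions in PB tails. The 9 genes held 39 insertions in 11 of 12 PB tails and 9 insertions in 8 of 30 PB tumours, or 8.10 and 0.574 per 10000 insertions. The TTAA sites of these genes alone gave 0.927 per 10000. Dsp encodes desmoplakin, which links the desmosome to keratin filaments. The gene (chr13:38151294-38198577) had 10 insertions in 6 PB tails and 2 in 2 PB tumours. The rates per sample ran from 0 over a median of 0.736 to 9.28 per 10000 in tails and from 0 over a median of 0 to 2.64 in tumours. The highest tumour rate lay above the median of the tails, so most tails fell within the range of the tumours. Its log2 fold change was 4.02 ± 0.83 (SE; edgeR, adjusted p = 0.00119). Dsc3, the desmosomal cadherin desmocollin, had 7 insertions in 5 tails and 3 in 3 tumours, with at most 4.91 per 10000 in a tail and 2.53 in a tumour. Its log2 fold change was 2.93 ± 0.82 (SE; edgeR, adjusted p = 0.0442), and with the form of the sample names as a covariate the edgeR adjusted p was 0.132.

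Dsg3 and Perp were hit in PB tails alone within PB. Dsg3, the desmosomal cadherin desmoglein, had 8 insertions in 6 PB tails and 0 in 30 PB tumours. With 3 insertions allowed for the tumours as a group and the tail count taken as exact, the rate was 8.69-fold higher in tails. Among the 8 insertions, PB tail replicates 5 and 6 shared 1 position and replicates 1 and 4 another, as given below. The fold counts all 8 insertions, as does the fit that follows. Perp, a membrane protein needed for desmosome assembly, had 7 insertions in 4 tails, with 3 of them in 1 tail, and 0 in tumours. By the same reckoning it was 7.61-fold higher in tails. Both were below the minimum of 10 insertions. In the fit without that minimum, which tested 13810 genes and called 43 (0.311%) higher in tails, the adjusted p was 0.00107 for Dsg3 and 0.00371 for Perp (edgeR). The same fit no longer called Dsc3 (edgeR, adjusted p = 0.169) or Dst (edgeR, adjusted p = 0.167). Pkp1, the armadillo protein plakophilin of desmosomes, had 5 insertions in 5 tails and 1 in 1 tumour (adjusted p = 0.169 in the same edgeR fit). Pkp3 and Jup had 1 insertion each in PB tails, Evpl 1 and Ppl 2 in PB tumours.

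Among the genes of the basal attachment, Dst stood out by number. It encodes dystonin, whose epithelial isoform is a plakin of the hemidesmosome. It is the longest member, at 401 kb (chr1:33907888-34308662), and held 24 insertions in 10 PB tails and 25 in 14 PB tumours. The rates per sample ran from 0 over 3.14 to 10.2 per 10000 in tails and from 0 over 0 to 16.7 in tumours, the highest being PB tumour replicate 4, so the ranges overlapped fully. The log2 fold change was 1.61 ± 0.48 (SE; edgeR, adjusted p = 0.0236). The call was lost without PB tail replicate 4 (adjusted p = 0.0857) and without PB tail replicate 10 (adjusted p = 0.0659). Lama3, a chain of laminin-332 in the basement membrane, had 8 insertions in tails and 14 in tumours, a log2 fold change of 0.91 ± 0.66 (SE; edgeR, adjusted p = 0.503).

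Itga6, the laminin-binding integrin subunit of hemidesmosomes, differed between the label and the gene. By label its log2 fold change was 0.95 ± 0.70 (SE; edgeR, adjusted p = 0.527), and by gene body, with 2 insertions in tails and 9 in tumours, it was -0.47 ± 0.96 (SE; edgeR, adjusted p = 0.85). Col17a1, the transmembrane collagen of hemidesmosomes, had 5 insertions in 3 tails and 1 in 1 tumour. Itgb4, Itga3, Lamb3 and Col7a1 had at most 2 body insertions in any PB group. Over the 8 genes, PB tails had 8.52 and PB tumours 3.38 insertions per 10000, and their TTAA sites gave 3.46.

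The transcription factors were led by Grhl2, a grainyhead-like activator of epithelial junction genes. The gene (chr15:37232821-37363569) had 21 insertions in 7 of 12 PB tails and 7 in 7 of 30 PB tumours. The rates ran from 0 over a median of 3.27 to 8.74 per 10000 in tails and from 0 over 0 to 3.24 in tumours. The ranges overlapped up to the highest tumour rate, which lay just under the median of the tails. The log2 fold change of 3.25 ± 0.59 (SE; edgeR, adjusted p = 1.44e-05) had the smallest p of the members. Grhl1, its paralogue, had 0 insertions in tails and 4 in tumours. Grhl3, Klf4 and Sox9 had 1 insertion each in tails.

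Both growth factor receptors were called and the third receptor was not. Egfr (chr11:16752203-16913907) had 19 body insertions in 9 PB tails and 16 in 12 PB tumours, with rates from 0 over a median of 3.39 to 11.7 per 10000 in tails and from 0 over 0 to 4.43 in tumours. By label its log2 fold change was 2.10 ± 0.52 (SE; edgeR, adjusted p = 0.00417). The highest tumour rate lay above the median of the tails, so most tails fell within the range of the tumours. Fgfr2 had 10 body insertions in 7 tails and 3 in 3 tumours, with medians of 1.42 and 0 per 10000 and maxima of 6.61 and 2.78. Its log2 fold change was 3.44 ± 0.79 by gene body (SE; edgeR, adjusted p = 0.00436) and 0.80 ± 0.26 by label (SE; edgeR, adjusted p = 0.0442), and the latter describes mostly other genes, as given above. With the name form as a covariate the label had an adjusted p of 0.0584 (edgeR). Lgr5, a receptor of R-spondins and a hair follicle stem cell marker, had 7 and 12 insertions and a log2 fold change of 0.93 ± 0.70 (SE; edgeR, adjusted p = 0.527).

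Of the cadherins, Cdh3, P-cadherin of basal cells, had 4 insertions in 3 PB tails and 1 in a PB tumour, and Cdh1, E-cadherin, had 2 and 4. The keratins themselves had few insertions, 3 in PB tails and 3 in PB tumours. This was 0.623 and 0.191 per 10000, or 7.16 and 2.19 times the rate of their TTAA sites. Their 6 genes hold 0.0871 of 10000 TTAA sites, and only Krt10 (2 insertions in PB tails, 3 in PB tumours) and Krt14 (1 in a PB tail) were hit by PB. In genes this short, an absence of insertions was not distinguishable from the number that the sites alone would give.

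**Figure D2:**
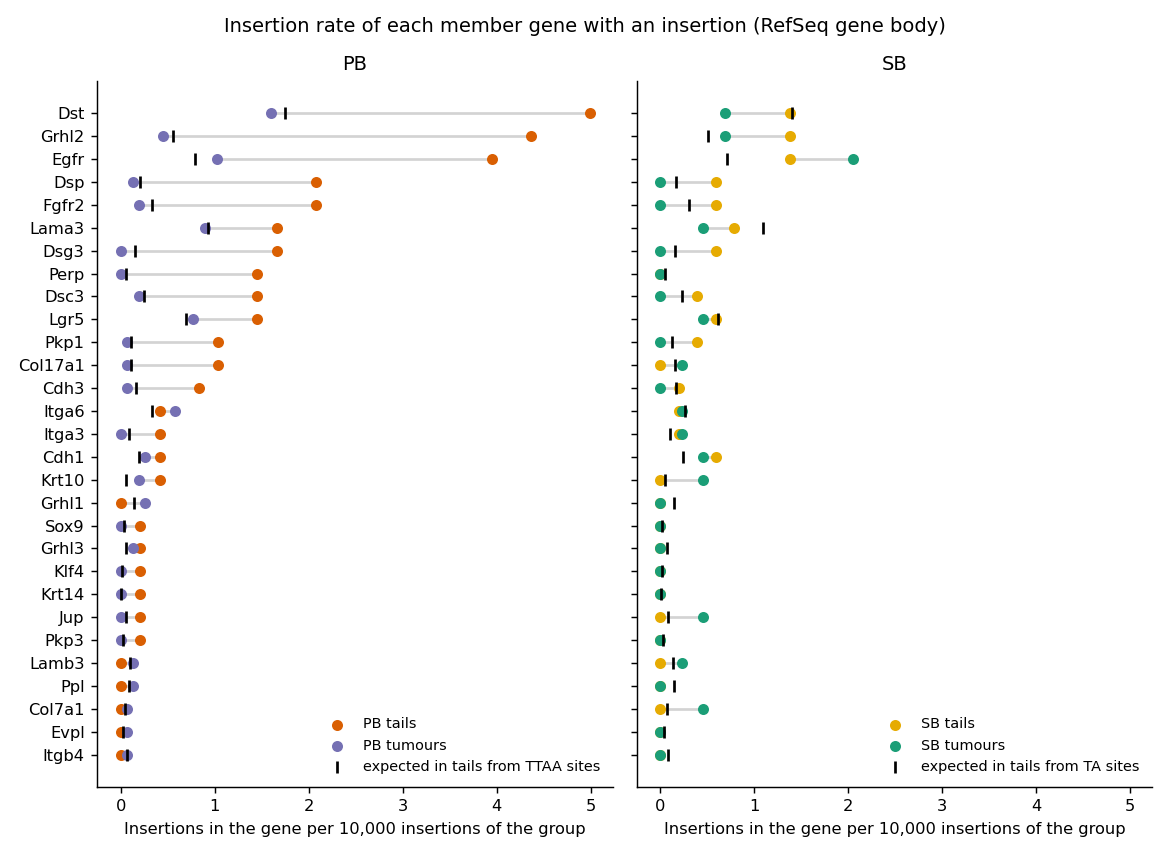
Insertions in the gene body per 10000 insertions of the group, for the 29 members with an insertion, in PB (left) and SB (right). Points are the tails and the tumours pooled over their samples, and black ticks are the rate expected in tails from the gene's target motifs. In PB the tail points of Dst, Grhl2 and Egfr lie at 4.99, 4.36 and 3.95, with tumour points at 1.59, 0.446 and 1.02.

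Each group was also set against the number of insertions expected from the target motifs. Motif counts hold no term for the preference of PB for genes and open chromatin, which the paper reports. With such a term the paper's model called fewer genes in the PB tumours. The ratios below are thus relative to motif counts only. For a gene, the expectation was the chromosome's insertions in the group multiplied by the gene's share of the chromosome's TTAA or TA sites, and genes were called by a one-sided Wald test with Bonferroni correction over all genes when hit in at least 3 samples. In PB tails 10 of the 34 members were called, beside 1.0% of 31027 genes (311 genes). They were Dsp, Dsg3, Dsc3, Pkp1, Perp, Dst, Col17a1, Grhl2, Egfr and Fgfr2. In PB tumours none of the 34 was called, beside 3.85% of genes. The ratio of observed to expected insertions in PB tails was highest for Perp, with 7 insertions against 0.289 expected, a ratio of 24.2. It was 10.6 for Dsg3, 10.2 for Dsp, 9.75 for Pkp1, 9.54 for Col17a1, 7.87 for Grhl2, 6.19 for Fgfr2, 5.88 for Dsc3, 4.98 for Egfr and 2.85 for Dst. In PB tumours the ratio was 0.881 for Dst, 1.02 for Lama3, 1.06 for Egfr and 1.12 for Lgr5, the members with at least 10 insertions there. When exact Poisson probabilities replaced the Wald test, 5 of the 10 remained in PB tails, beside 82 of 31027 genes. They were Perp, Egfr, Dsp, Grhl2 and Dsg3. Both tests pool the insertions of a group and hold no term for the spread between mice. With each gene counted once per sample, the Wald test called 3 members in PB tails, namely Pkp1, Perp and Dsg3, beside 115 of 31027 genes.

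No member was called in SB. Of 1124 genes tested between SB tails and SB tumours, 2 (0.178%) were higher and 7 (0.623%) lower in tails. The 4 members tested had unadjusted p above 0.05 in edgeR, and DESeq2 called none of them either. Grhl2 had 7 insertions in SB tails and 3 in SB tumours, a log2 fold change of 1.0 ± 0.96 (SE; edgeR, adjusted p = 0.79). Dst had 7 and 3, a log2 fold change of 0.97 ± 0.95 (SE; edgeR, adjusted p = 0.792). Egfr had 7 and 9, a log2 fold change of -0.58 ± 0.77 (SE; edgeR, adjusted p = 0.883). The Fgfr2 label gave 0.49 ± 0.40 (SE; edgeR, adjusted p = 0.756). Dsp and Dsg3 had 3 insertions each in SB tails and 0 in SB tumours, Dsc3 and Pkp1 2 and 0, and Perp 0 in both. Against the expectation from TA sites, none of the 34 was called in SB tails, beside 0.134% of 31430 genes, or in SB tumours, beside 0.299%.

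**Figure D3:**
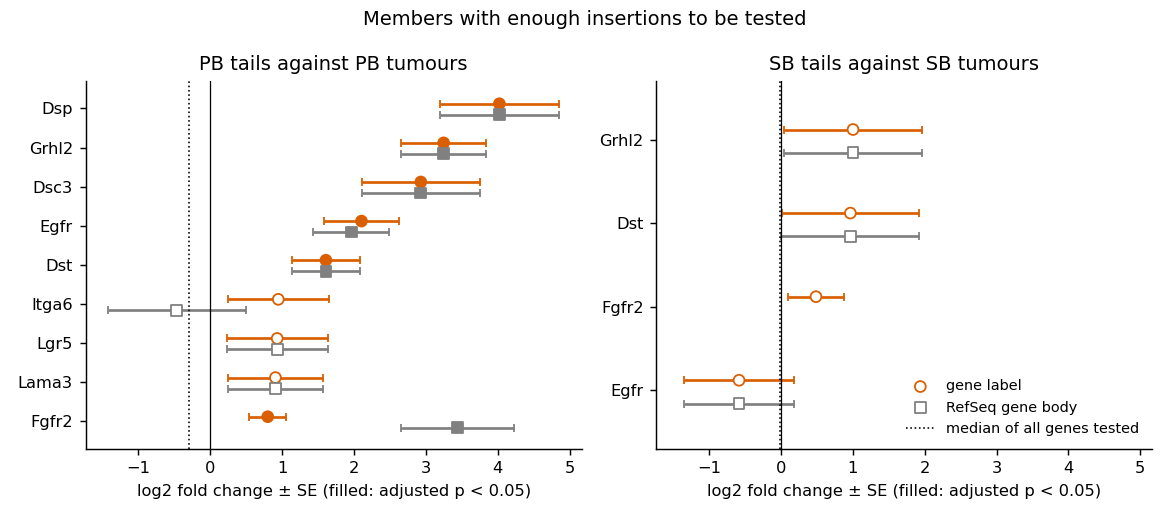
Log2 fold change of tails against tumours with its SE for the members tested, in PB (left) and SB (right), by gene label (circles) and by RefSeq gene body (squares). Filled symbols had an adjusted p under 0.05, and dotted lines mark the median of all genes tested. In PB, Grhl2, Dsp, Dsc3, Egfr and Dst lie at nearly the same value under both counts, while Fgfr2 moves from 0.80 to 3.44 and Itga6 from 0.95 to -0.47.

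The contrast itself was compared between the systems in a joint edgeR fit of 4292 genes, of which 0 were called. Of 11 members tested, Egfr had an unadjusted p of 0.00357 (edgeR, adjusted p = 0.386), the SB log2 fold change minus the PB one being -2.69 ± 0.92 (SE), and the others were above 0.05. For Grhl2 this difference was -2.23 ± 1.24 (SE; edgeR, adjusted p = 0.575). DESeq2 also called none, with 1 member at an unadjusted p under 0.05. The PB and SB contrasts of the members were thus not shown to differ gene by gene.

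PB insertions in the members lay mostly in introns, as did SB ones. Introns held 136 of 149 insertions in PB tails, 106 of 114 in PB tumours, 44 of 47 in SB tails and 27 of 31 in SB tumours. The transposon pointed along the gene in 70 of 149 insertions of PB tails and 54 of 114 of PB tumours. Within 5 kb of the gene start lay 20.8% of member insertions in PB tails, beside 18.4% of insertions in all gene bodies, and 8.77% in PB tumours, beside 16.8%. In SB tails 1 of 47 lay there, beside 9.08% in all gene bodies, and in SB tumours 0 of 31, beside 9.19%.

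The position within the gene differed between members. In Dsg3, 7 of 8 insertions in PB tails lay within 5 kb of the start, in Perp 4 of 7 and in Col17a1 4 of 5. In Grhl2 it was 5 of 21 in tails and 0 of 7 in tumours, and the median distance was 40.6 kb in tails and 66.9 kb in tumours. In Egfr the medians were 46.7 kb and 109 kb. In Dst, no insertion of PB tails lay within 97 kb of the start, a limit set from these same insertions. There lay 3 of 25 insertions in PB tumours, 3 of 7 in SB tails and 0 of 3 in SB tumours. The short transcript NM_010081.3 begins 252 kb into the gene, and 11 of 24 insertions in PB tails and 7 of 25 in PB tumours lay in the 100 kb before its start. Anywhere before its start lay 14 of 24 in PB tails and 17 of 25 in PB tumours.

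**Figure D4:**
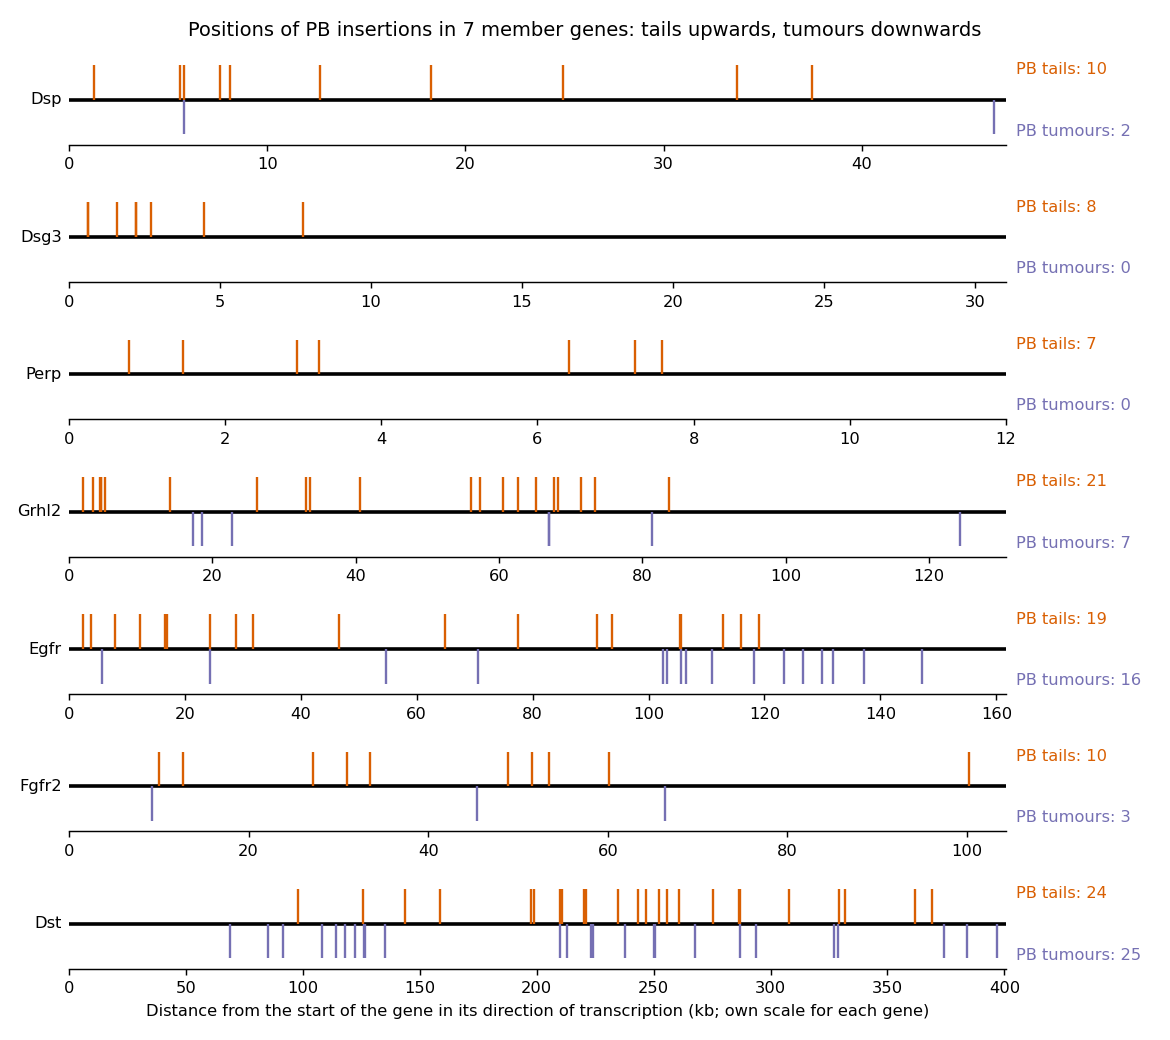
Positions of PB insertions along 7 member genes, as distance in kb from the start of the gene in the direction of transcription, with PB tails drawn upwards and PB tumours downwards. Each line is 1 insertion of 1 sample. In Dsg3 7 of the 8 tail insertions lie in the first 5 kb, and in Dst the tail insertions lie between 97.9 and 369 kb.

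The reads on member insertions did not set them apart from other insertions of the same samples. Their median was 25 reads in PB tails (21 over all insertions), 6 in PB tumours (6), 20 in SB tails (19) and 17 in SB tumours (13). Ranked within each sample, the median member insertion lay between the percentiles 50.2 and 54.6 in the 4 groups. Among the 10 insertions with the most reads of a sample were 2 member insertions in PB tails and 1 in PB tumours. Positions shared with another sample of the same system held 12 of the 149 insertions in PB tails, or 8.05% beside 8.69% of all insertions of these samples. Of these, a Dsg3 site had 93 reads in both PB tail replicates 5 and 6 on the same strand. Another Dsg3 site was shared by PB tail replicates 1 and 4, on opposite strands. Without shared positions, the same 6 members were called. Dsg3 is not among them and, being below the minimum, was not tested in that PB fit.

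Other lists of genes were summed in gene bodies, and their single genes are given by label, as they were tested. A list of 38 further epidermal genes had 18.7 insertions per 10000 in PB tails and 4.84 in PB tumours. Of its 2 genes tested, 1 was higher in PB tails, Trp63, the p63 transcription factor of basal keratinocytes, with 43 insertions in tails and 16 in tumours and a log2 fold change of 3.18 ± 0.45 (SE; edgeR, adjusted p = 1.87e-09). Genes of dermal fibroblasts had 6.03 and 2.36 per 10000, of skeletal muscle 2.49 and 2.23, of cartilage and bone 15.6 and 11.8, and of T cells 2.08 and 0.829. Cartilage and bone had 1 call of 3 genes tested, Sox6, with 33 insertions in PB tails and 38 in PB tumours and a log2 fold change of 1.52 ± 0.42 (SE, edgeR, adjusted p = 0.0123). B lineage genes went the other way, with 6.86 per 10000 in PB tails and 22.2 in PB tumours. Of 5 tested, Ebf1, a B cell transcription factor, had 20 insertions in tails and 219 in tumours (log2 fold change -1.60 ± 0.35, SE; edgeR, adjusted p = 0.00071). Cd74, the invariant chain of antigen presentation, had 0 in tails and 22 in tumours (edgeR, adjusted p = 0.0199). In SB, Ebf1 had 9 and 57 insertions and a log2 fold change of -2.81 ± 0.54 (SE; edgeR, adjusted p = 4.02e-05), while the further epidermal genes had 7.48 per 10000 in SB tails and 7.30 in SB tumours with 0 of 2 tested called. The part of tissue composition in the members' values was not tested.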

How the data were processed

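Insertions were read from splinkerette PCR libraries of 64 samples sequenced on MiSeq. The authors deposited a table with a position, strand, gene name and read count per insertion, as raw counts of reads, and positions are on mm10. The aligner, the caller and the read filters are not given in the sources used here. Of the columns with values per sample, 1 (coverage after normalization) was left aside. The table held 385883 lines with at least 2 reads each.

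Positions were moved to the nearest TTAA or TA within 5 bp and counted once per sample. Chromosome 14, taken as the donor, and the sex chromosomes were left out. The median sample of a group held between 104091 and 136578 reads on kept insertions. Genes and bodies came from the RefSeq annotation of GRCm38. Insertions per gene were tested with edgeR's quasi-likelihood test on the labelled counts, the sample's insertions being the library size, with Benjamini-Hochberg adjustment and a minimum of 10 insertions per system. Insertions above expectation were tested with a one-sided Wald test at 0.05 after Bonferroni correction. The edgeR and DESeq2 p-values measure the spread between samples, taken as 1 per mouse. Those of the Wald and exact Poisson tests rest on insertions pooled over a group and hold no spread between mice. Named genes are members called in a test or with at least 10 insertions in a system, other members by count, and called genes of other lists. One target site is not reported here. Members and lists were chosen with earlier results of these data known. Alternatives covered scaling, tool, filters, reads, gene definition, shared positions, name form, name stem and each sample left out. Python 3.11.15, numpy 2.4.6, pandas 2.3.3, scipy 1.17.1, matplotlib 3.10.9, R 4.3.3, edgeR 4.0.16 and DESeq2 1.42.0 were used.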

Additional observations from a re-analysis of the deposited data

How the results depend on the processing

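The labels carry no replicate numbers. Some sample names share a stem, whose meaning is not given, and in PB 3 stems hold both tissues (4 tails and 5 tumours). With this stem as a block, chosen after seeing the data, 0 members were called in PB and 0 in SB. Of 66 alternative values for the 6 members called in PB, 33 kept direction and call, 33 kept the direction without the call, and 0 reversed. The count of 6 members called fell to 3 with TMM factors, 3 with at least 30 insertions, 2 with at least 10 reads, 1 with DESeq2 (Egfr, 3 of 9 members having an adjusted p), 1 within joined names (Grhl2), 0 within separated names and 0 with presence per sample. Over all genes, calls higher in tails fell from 76 to 45 with TMM factors and to 18 with DESeq2 (614 genes having an adjusted p). With the name form as a covariate 4 members were called, without Dsc3 and the Fgfr2 label, and with no filter 6, with Dsg3 and Perp in place of Dsc3 and Dst. Leaving out each sample gave between 3 and 6 calls. Grhl2, Dsp and Egfr were called in each of these fits. Dsc3 was lost in 16 fits, in which it fell below 10 insertions or had an adjusted p of up to 0.0542, the label of Fgfr2 was lost in 16 (adjusted p up to 0.14), and Dst was lost without PB tail replicate 4 or 10. In SB and between the systems 0 members were called under each alternative run. Calls of members above expectation in PB tails fell from 10 to 5 with the exact Poisson test and to 3 with presence per sample, and in the other groups they stayed at 0. Over all genes the calls in PB tails fell from 311 to 82 and to 115 under the same alternatives. The share by label moved to 0.313% (PB tails), 0.0766% (PB tumours), 0.0901% (SB tails) and 0.0690% (SB tumours) in gene bodies, and without the Fgfr2 label, chosen after seeing the data, to 0.309%, 0.0759%, 0.0894% and 0.0673%. With donor and sex chromosomes kept it was 0.131% in SB tails, and by reads 0.117% in SB tumours. Without PB tumour replicate 4, also chosen after seeing the data, the PB tumours had 0.181%. In short genes fewer than 1 insertion was expected over a group, so an absent call shows no absence of a difference.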
